A study of Mus musculus with 18 samples.

Results

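Axonal RNA was compared with somatodendritic RNA, the RNA of cell bodies and dendrites, in cultured wild-type mouse motoneurons. The comparison used 3 axonal and 3 somatodendritic arrays of untransduced wild-type cultures, 6 of the 18 arrays of the series. Arrays were assigned to these groups by their labels. The cells came from spinal cords of E12.5 mouse embryos, freed of dorsal root ganglia and meninges, and were enriched by panning for the p75 neurotrophin receptor. For each chamber 1000000 cells were plated on one side of a microfluidic device, whose narrow channels let axons, but few cell bodies, pass to the other side, and were grown for 7 days. The axonal side alone received BDNF (20 ng/ml) and each side received CNTF (5 ng/ml), so the compartments also differed in this factor. The empty vector and Smn knockdown cultures, 3 arrays per compartment each, had been grown in the same way after transduction with lentivirus, and serve here as further comparisons of the compartments. RNA was amplified linearly in 2 rounds and read on Affymetrix arrays of the mouse genome. The labels do not say whether replicate arrays stand for separate cultures, so each p-value measures only the spread between these arrays, which may be technical.

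Axons of motoneurons can extend far from the cell body, and part of their protein is made locally from mRNA that is carried along microtubules by RNA-binding proteins and motors. Transcripts for ribosomal proteins, for mitochondrial proteins, for translation factors and for the cytoskeleton are well known from axon preparations of several kinds of neuron. Nuclear RNA and the RNA of dividing cells and glia, by contrast, belong to cell bodies, so their levels bear on how far an axonal sample is free of other cells.

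A gene is called here where it passed a limma fit on the log2 values and a limma fit on its percentile rank among the 18191 genes of each array, both at an adjusted p under 0.05 and in the same direction. The second fit was added because the values of each compartment had been brought to a common distribution apart from those of the other. Genes of tissues that the spinal cord does not contain, 222 in all, gave a background level for each array. It lay between 7.03 and 7.08 on the axonal and between 6.73 and 6.78 on the somatodendritic arrays. Above background on all 3 arrays of a group were 5391 genes in axons and 8827 in cell bodies, 5179 of them in both. Where a gene was above background in the brighter group only, its fold is a lower bound, written "at least".

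The axonal arrays were much less alike than the somatodendritic ones. Across genes, pairs of axonal arrays correlated at 0.840 to 0.902 and pairs of somatodendritic arrays at 0.994 to 0.995. The correlation between the compartments was 0.803 to 0.889, so the ranges between and within compartments overlapped for axons. Over the genes above background in both compartments, the median SD among 3 arrays was 0.478 in axons and 0.115 in cell bodies. The hybridisation spikes BioC and BioD were at 12.66 ± 0.15 (SD, n = 3) in axonal and 10.62 ± 0.08 (SD, n = 3) in somatodendritic arrays on the deposited log2 scale. For Gapdh the probe set at the 3' end exceeded that at the 5' end, a measure of RNA length, by 2.74 ± 0.56 in axons and 3.40 ± 0.26 in cell bodies (SD, n = 3), and the ranges overlapped. The part of these technical differences in the results was not tested.

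The motoneuron label was only partly borne out by the marker genes, each read by 1 probe set. A level below background does not show that a transcript was absent. Of 15 motoneuron and cholinergic markers, 5 were above background on all somatodendritic arrays: Foxp1, Ret, Chodl, Prph and Cntfr. The other 10 were not, among them Mnx1, Isl1, Isl2, Lhx3, Lhx4 and the cholinergic genes Slc18a3, Slc5a7, Ache and Chat. Chat, the enzyme that makes acetylcholine, was at 5.83, 5.83 and 5.80 in cell bodies and 5.86, 6.08 and 6.16 in axons, below background on all 6 arrays. Transcripts of other spinal neurons were well above background in the cell bodies. Gad1, which makes GABA, was at 12.22, 12.37 and 12.19 there, and Slc17a6, the glutamate transporter VGLUT2, at 12.09, 12.11 and 12.08. In axons Gad1 was at 7.62, 10.57 and 11.51 and Slc17a6 at 9.37, 10.83 and 11.72, lowest on replicate 1 and highest on replicate 3 for both. In axons only Prph, a neuronal intermediate filament, and Cntfr, the CNTF receptor subunit, of the 15 motoneuron markers were above background on all arrays.

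Markers of other cell types differed strongly among the axonal arrays. The summed signal of 17 microglia and macrophage markers, on a log2 scale, was 15.35, 12.08 and 12.46 on axonal replicates 1, 2 and 3, against 13.28 to 13.49 on the somatodendritic arrays. Replicate 1 thus lay above all cell body arrays, and replicates 2 and 3 below them. Csf1r, the receptor for macrophage colony-stimulating factor, was at 13.25, 7.84 and 11.32 on the axonal arrays, and C1qb, a complement chain made by microglia, at 12.08, 8.80 and 8.05. The 20 fibroblast and meningeal markers summed to 14.64, 11.41 and 10.68 in axons and 11.84 to 12.32 in cell bodies. Col1a2, a collagen chain made by fibroblasts, was at 13.14 on axonal replicate 1 and at 6.14 and 6.30, below background, on the others. Astrocyte markers pointed to another array: the sum over 14 genes was 12.70, 14.60 and 12.05 in axons and 14.57 to 14.87 in cell bodies. By this sum, in which bright genes weigh most, axonal replicate 2 reached the cell bodies. By the mean log2 value of the list it did not, at 8.28 against 9.20 to 9.29, with 10 genes above background against 12. Axonal replicates 1 and 3 had means of 6.69 and 6.38. Fabp7, a fatty acid binding protein of radial glia and astrocytes, was at 11.43, 13.95 and 11.35 on the axonal arrays, and Aqp4, the astrocytic water channel, at 3.37, 8.75 and 3.72. The 32 markers of proliferating cells summed to 12.89, 13.02 and 12.05 in axons against 14.20 to 14.48 in cell bodies. No erythroid marker was above background on any of the 6 arrays. Transcripts that mark cells other than motoneurons were therefore above background on all 3 axonal arrays, in a different mixture on each, and their part in the compartment differences below was not tested. In such bulk samples fewer cells of a type and less RNA per cell cannot be told apart.

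**Figure D1:**
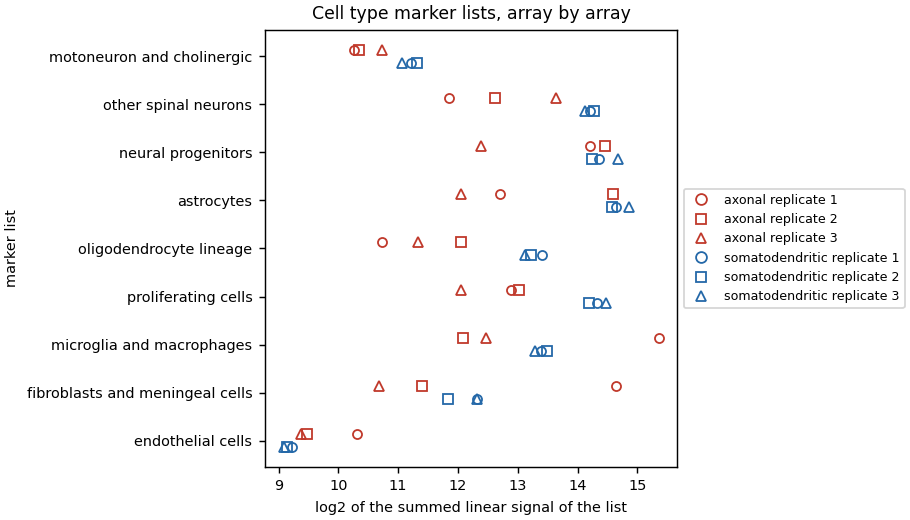
Log2 of the summed linear signal of each cell type marker list (x axis) on the 3 axonal (red) and 3 somatodendritic (blue) wild-type arrays, with one symbol shape per replicate number. Axonal replicate 1 stands highest for microglia (15.35) and fibroblasts (14.64), and all 3 axonal arrays lie below the cell bodies for proliferating cells. For astrocytes the sum of axonal replicate 2 (14.60), in which bright genes weigh most, reaches the cell bodies.

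By both scales 1257 of 18191 genes (6.91%) were called higher and 661 (3.63%) lower in axons than in cell bodies. By the log2 values alone 3651 genes (20.1%) were higher and 3358 (18.5%) lower, and by the ranks alone 2003 (11.0%) and 722 (3.97%). The share of higher genes among the calls by values was 52.1%, but 61.5% when both compartments were brought to one common distribution (1478 genes, 8.12%, higher and 926, 5.09%, lower) and 64.8% after subtracting each array's median. Over all genes the median log2 difference was 0.17, and over the 5179 genes above background in both compartments it was -0.50, since dim genes were read higher in axons. Among 222 genes of absent tissues, 96 (43.2%) were higher in axons by values, 9 on the common distribution and 15 (6.76%) by both scales. The scale decides the balance of many gene lists, because bright genes read lower in axons on the deposited scale, and the counts on the common distribution are given beside those by values. The text therefore turns on calls by both scales with the brighter group above background, which were 399 genes higher (2.19%) and 490 lower (2.69%), together 4.89% of all genes. Among the 222 genes of absent tissues 4 were higher and 0 lower by this rule. The rule thus does not free the higher calls of such genes. Of the 399 higher genes 254 were also above background in cell bodies, and of the 490 lower genes 111 were also above background in axons.

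These counts fell strongly when a somatodendritic array was left out, but not when an axonal one was. The part of the smaller spread of the somatodendritic arrays in this was not tested. Leaving out any 1 of them left 17 to 28 genes called higher and 81 to 107 lower by both scales. Leaving out an axonal array gave 1514 to 2020 higher and 1144 to 1364 lower. Of the 399 higher and 490 lower genes, 16 and 58 were still called without somatodendritic replicate 1, 16 and 59 without replicate 2, and 23 and 73 without replicate 3. When each compartment was given its own weight for spread, 171 of the 399 and 362 of the 490 were called.

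**Figure D2:**
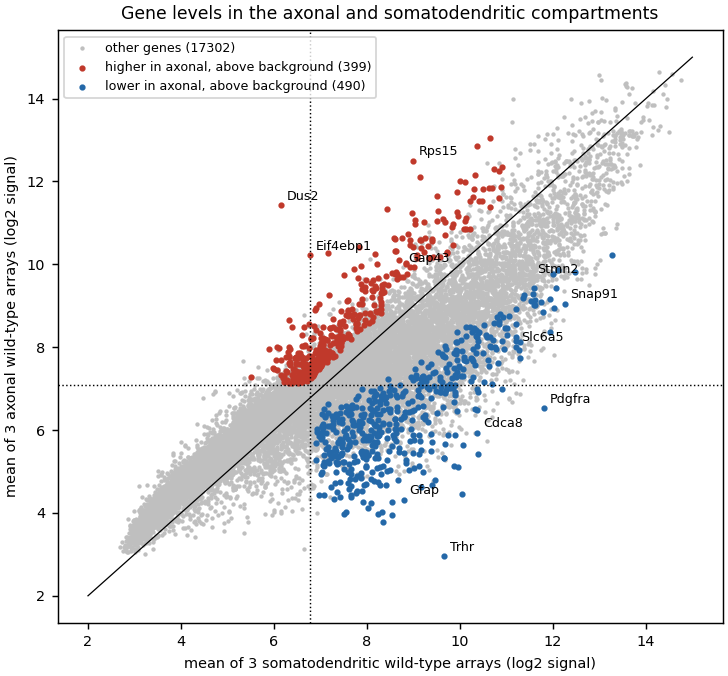
Mean log2 signal of each gene in 3 axonal arrays (y axis) against 3 somatodendritic arrays (x axis), with the diagonal of equal values. Dotted lines mark the highest background level among the arrays of each compartment. Red points are the 399 genes called higher and blue points the 490 genes called lower in axons by both scales with the brighter group above background; blue points reach farther from the diagonal than most red ones.

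Genes for cytosolic ribosomal proteins, the protein parts of the ribosome, formed the list with the highest share of genes higher in axons by values. Of 79 listed, 44 had a probe set that names no other gene, and 33 of these (75.0%) were higher by values against 20.1% of all genes. The exception in the other direction was Rps6, the target of S6 kinase, with a log2 difference of -1.11. On a common distribution 33 were higher and 0 lower. By both scales 11 of 44 were higher (25.0%, against 6.91% of all genes) and none lower. At an unadjusted p under 0.05 by limma on the values, 36 were higher and 1 lower. The median difference of the list was 0.97 on the deposited scale and 1.27 on a common scale, against 0.17 and 0.18 over all genes. Ribosomal protein genes were among the brightest in both compartments, 40 of 44 above background in axons and 42 in cell bodies, and a gene near the top of the ranks can hardly gain rank. Rpsa, a component of the small subunit, was at 14.55, 14.58 and 14.58 in axons and 13.06, 12.77 and 13.12 in cell bodies. Its difference was 1.58 (SE 0.15, limma adjusted p = 0.00321), yet its rank was higher by only 0.89. The count by values was 13 to 17 without 1 somatodendritic array, 31 to 33 without 1 axonal array and 26 with a weight for each compartment. The count by both scales was 2 or 3 in the first and last of these.

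Many ribosomal protein mRNAs carry a run of pyrimidines at their very start, through which mTOR signalling controls their translation, and the start sites of the 11 called genes are shown for that reason. Each line is the 30-base window from 15 bases before to 15 bases after the first start listed by RefSeq on GRCm38.p6, read 5′ to 3′ on the gene's strand, with the longest unbroken run of C or T in capitals.
Rps15, chr10:80292416-80292445, plus strand: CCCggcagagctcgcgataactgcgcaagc
Rps10, chr17:27635230-27635259, minus strand: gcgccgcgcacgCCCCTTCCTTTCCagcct
Rplp0, chr5:115559452-115559481, plus strand: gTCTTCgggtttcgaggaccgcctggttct
Rps24, chr14:24490663-24490692, plus strand: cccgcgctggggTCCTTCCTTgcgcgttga
Rps19, chr7:24884577-24884606, plus strand: tccgaaaTCTCgcgagactcgacgcccgac
Fau, chr19:6057932-6057961, plus strand: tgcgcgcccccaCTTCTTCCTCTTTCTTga
Rpl27a, chr7:109519180-109519209, plus strand: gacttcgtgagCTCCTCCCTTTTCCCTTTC
Rpl11, chr4:136053379-136053408, minus strand: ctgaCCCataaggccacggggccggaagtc
Rpl37, chr15:5116598-5116627, plus strand: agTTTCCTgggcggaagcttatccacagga
Rps9, chr7:3704026-3704055, plus strand: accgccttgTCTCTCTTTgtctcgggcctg
Rps27, chr3:90213634-90213663, minus strand: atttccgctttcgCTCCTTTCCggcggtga
A run of 8 or more pyrimidines on the gene's strand lay in this window for 6 of the 11 called genes (54.5%) and 17 of the 39 measured ribosomal protein genes with a window (43.6%). Over the tested genes it was 1733 of 14450 with a window, and over all genes 3205 of 27025 windows (11.9%). A match describes these letters only, and the listed start may not be the one used in these cells.

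Rps15, a small subunit protein, was the second largest higher gene. It was at 12.91, 12.18 and 12.41 in axons and 9.12, 8.57 and 9.27 in cell bodies, 11.4-fold higher (log2 3.51, SE 0.28, limma adjusted p = 0.00224). Rps10, another small subunit protein, was at 11.98, 10.68 and 11.32 in axons against 8.64, 8.18 and 8.50, 7.40-fold higher (adjusted p = 0.00568). For both genes every axonal array lay above every cell body array by more than the spread within a compartment. The rule of choice for the 12 largest genes required that the compartments not overlap. Over all genes the arrays did not overlap in value for 6725 (37.0%) higher and 4902 (26.9%) lower. Rplp0, part of the ribosomal stalk, was at 13.12, 12.81 and 12.68 against 10.49, 9.92 and 10.67, 5.70-fold higher. Rps24 was at 13.46, 12.73 and 12.94 against 10.63, 10.33 and 11.02, 5.23-fold higher. Rps19 was at 11.73, 11.05 and 10.92 against 9.12, 8.56 and 9.20, 4.84-fold higher. Rplp0, Rps24 and Rps19 had limma adjusted p of 0.00348, 0.00488 and 0.00665, and their groups did not overlap, as the same rule required. Rpl27a, a large subunit protein, was the most even, at 12.06, 11.96 and 11.92 against 10.09, 10.00 and 10.23 (log2 1.88, SE 0.14, adjusted p = 0.00201). Fau, which encodes a ubiquitin-like protein fused to ribosomal protein S30, was higher by 2.05, Rpl11 by 1.58, Rpl37 by 1.42 and Rps9 by 1.26. Rps27 was higher by 0.98 but above background in neither compartment. Where a second bright probe set existed it was called the same way, in 1 of 1 for Rps15, 4 of 4 for Rps10 and 3 of 3 for Rps24.

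Outside the ribosome the largest higher gene was Dus2, an enzyme that makes dihydrouridine in tRNA. It was at 10.89, 11.57 and 11.81 in axons and 6.04, 6.26 and 6.18, below background, in cell bodies, at least 25.4-fold higher (log2 5.26, SE 0.26, limma adjusted p = 0.00112). Its probe set is of a kind that may read other transcripts, and the gene's other probe set, below background, gave a difference of 0.47 that did not pass. Eif4ebp1, which holds back cap-dependent translation by binding eIF4E, was at 12.41, 8.39 and 9.87 in axons and 6.80, 6.63 and 6.92 in cell bodies, at least 10.6-fold higher (adjusted p = 0.0377). It was highest by far on axonal replicate 1, and lost its call without axonal replicate 3 or without any 1 somatodendritic array. Bola2, a factor of iron-sulfur cluster handling, was at 12.70, 11.70 and 11.89 against 9.45, 8.88 and 9.07, 7.81-fold higher (adjusted p = 0.00409), and its 3 other bright probe sets were called the same way. Sars, the cytosolic seryl-tRNA synthetase, was at 10.80, 9.89 and 10.60 against 7.97, 7.41 and 8.09, 6.10-fold higher (adjusted p = 0.00547). No array of one compartment overlapped with those of the other for these 4 genes, as the rule of choice required.

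Fyco1, an adaptor that links autophagosomes to kinesin, was at 9.99, 8.49 and 7.50 in axons and 6.48, 6.23 and 6.25 in cell bodies, at least 3.75-fold higher. It lost its call without axonal replicate 2 or without any 1 somatodendritic array, and its other probe set was above background in neither compartment. Lrrfip2, a leucine-rich repeat binding protein of Wnt and Toll-like receptor signalling, was at 9.81, 9.18 and 10.23 against 7.50, 7.28 and 7.71, 4.74-fold higher, but its other bright probe set differed by -0.37 and did not pass. Ccdc107, a coiled-coil protein, was at 8.34, 8.03 and 9.12 against 6.56, 6.11 and 6.49, at least 3.34-fold higher. Of the 24 largest genes, 12 in each direction, 8 kept their call without each of the 6 arrays in turn: Dus2 and Rps10 among the higher ones, and Trhr, Setd5, C1ql3, Zfp248, Cdca5 and Gfap among the lower ones. The other 16 lost it without some array. Without somatodendritic replicates 1, 2 and 3 in turn, 9, 10 and 11 of the 24 were still called. Without axonal replicates 1, 2 and 3 these were 22, 21 and 21. Rplp0, Rps24, Rps19, Ccdc107 and Phf20l1 were among those that lost their call without any 1 somatodendritic array.

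**Figure D3:**
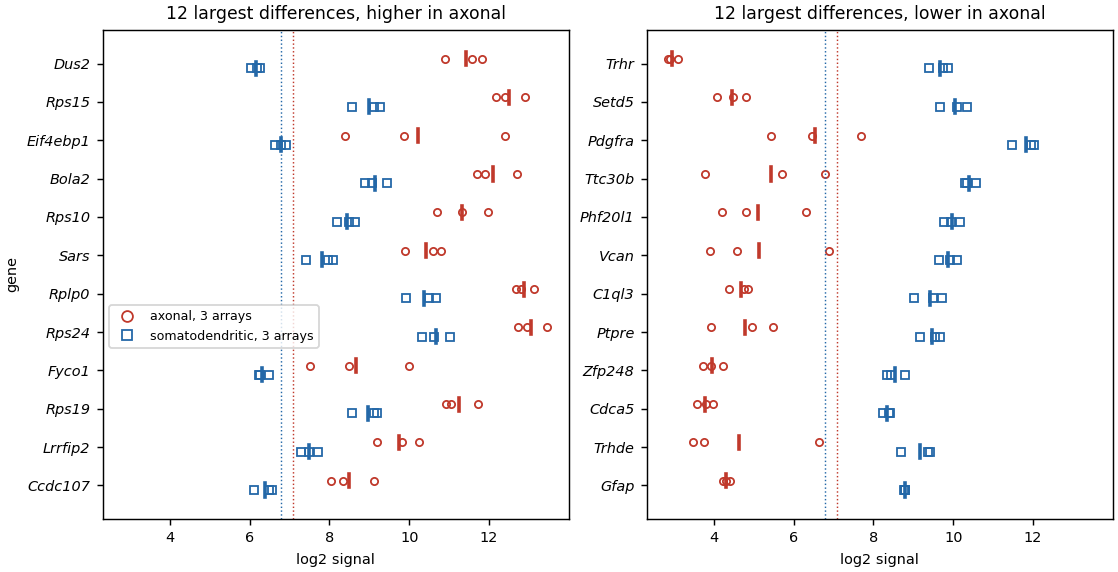
Log2 signal (x axis) on each of the 3 axonal (red circles) and 3 somatodendritic (blue squares) wild-type arrays for the 12 genes with the largest difference in each direction, with bars at the means. Dotted lines mark the highest background level among the arrays of each compartment. The compartments overlap for none of these genes, which the rule of choice required; Eif4ebp1 and Fyco1 spread widest among the axonal arrays on the left.

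Nuclear-encoded subunits of oxidative phosphorylation, the mitochondrial machinery that makes ATP, were also higher more often than not among those called. Of 73 measured, 27 (37.0%) were higher and 7 lower by values, against 20.1% and 18.5% of all genes. Among the genes of absent tissues 43.2% were higher by values. On a common distribution 31 subunits were higher and 2 lower. By both scales 11 were higher (15.1%) and 1 lower (1.37%), against 6.91% and 3.63% of all genes. The median by values was 0.44 against 0.17 over all genes, but the median rank difference was 1.86 against 1.84. Nearly all were bright, 70 above background in each compartment. Atp5o, a stalk subunit of ATP synthase, was at 10.42, 11.11 and 10.35 in axons and 8.63, 8.48 and 9.17 in cell bodies, 3.65-fold higher (limma adjusted p = 0.0105). Ndufb10 and Ndufa7, accessory subunits of complex I, were higher by 1.85 and 1.79. Every axonal array of these 3 genes lay above every cell body array, as for 37.0% of all genes. The other called subunits were Atp5g1 (1.40), Atp5e (1.33), Ndufa8 (1.32), Atp5l (1.26), Ndufb2 (1.25), Uqcr10 (1.18), Ndufa10 (1.13) and Atp5g2 (1.08), all on the log2 scale. Sdhd, a membrane anchor of complex II, was lower by values only (log2 -2.30). The one gene called lower, Cox7c, was not above background on all arrays of either compartment and differed by 0.10 in the other direction with a probe set specific to it. By both scales 3 subunits were called higher with a weight for each compartment, and none or 1 without a somatodendritic array.

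Proteins of the mitochondrial ribosome are encoded in the nucleus and imported. Of 74 measured, 8 were higher (10.8%, against 6.91% of all genes) and none lower by both scales. By values 9 were higher and 8 lower, a smaller share in each direction than over all genes (20.1% and 18.5%), and on a common distribution 23 were higher and 0 lower. Mrpl52 was at 11.94, 11.20 and 10.74 in axons against 9.60, 9.39 and 9.61, 3.39-fold higher (limma adjusted p = 0.0143). Mrpl12 was higher by 1.50, Mrpl54 by 1.29, Mrps24 by 1.22, Mrpl2 by 1.14, Mrps15 by 0.99, Mrpl34 by 0.73 and Mrps18b by 0.68, Mrpl54 while dim. Mrpl50 and Mrpl9 were lower by values only, with differences of -1.68 and -1.54. The count by both scales was 20 on a common distribution, 5 with a weight for each compartment and 0 without any 1 somatodendritic array. Among 22 genes of mitochondrial protein import, Timm13, an intermembrane chaperone, and Timm44 and Pam16, parts of the motor at the inner membrane, were higher by 1.54, 1.41 and 1.12, and none was lower by both scales (13.6% higher, against 6.91% of all genes). By values 3 were higher and 4 lower, and on a common distribution 6 and 0.

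Translation factors, which bring mRNA, initiator tRNA and ribosome together and move the ribosome along, had 7 higher and 10 lower of 46 by values, but 11 higher and 1 lower on a common distribution, so the balance turned with the scaling. By both scales 6 were higher, against 6.91% of all genes, and none lower, 1 with a weight for each compartment and 0 without any 1 somatodendritic array. Eef2, the factor that translocates the ribosome, was at 10.83, 9.99 and 10.96 in axons and 8.96, 8.50 and 9.33 in cell bodies, 3.16-fold higher (limma adjusted p = 0.0185). Besides Eif4ebp1, the others were Eif3d (1.41), Eif4a1 (1.22), the helicase of the cap-binding complex, Eif5a (1.05) and Eef1a2 (0.75). Eif4a2, a close relative of Eif4a1, was at 6.72, 8.56 and 8.03 against 11.26, 11.30 and 11.27. Its log2 difference was -3.51 by values (adjusted p = 0.00742), at least 10.6-fold, but its rank difference did not pass. Of 21 aminoacyl-tRNA synthetases Sars alone was higher by both scales (4.76%, against 6.91% of all genes). By values 1 was higher and 4 were lower, and on a common distribution 4 and 0.

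Cytosolic chaperones and proteasome subunits, which fold and degrade proteins, turned their balance with the scaling as well. Of 37 chaperones 5 were higher (13.5%, against 6.91% of all genes) and none lower by both scales. By values 5 were higher and 11 lower, and on a common distribution 10 and 3. Pfdn5, Pfdn1 and Pfdn6, subunits of prefoldin, which hands actin and tubulin to the folding chaperonin, were higher by 2.02, 1.68 and 1.28. Pfdn5 was at 10.21, 10.94 and 10.71 in axons and 8.66, 8.36 and 8.79 in cell bodies. Fkbp4, a co-chaperone of Hsp90, was higher by 2.05, and Hspb1, a small heat shock protein, by 0.56 while dim. Hspa1b and Dnaja2 were lower by values only, with differences of -2.37 and -1.98. Of 31 proteasome subunits 4 were higher (12.9%) and 1 lower (3.23%) by both scales, against 6.91% and 3.63% of all genes. By values these were 4 and 8, and on a common distribution 7 and 1. Psmb6, Psmd4, Psmd8 and Psmc3 were higher, by 1.22, 1.15, 0.96 and 0.83. Psmb7, which carries the trypsin-like activity of the core, was at 6.89, 7.57 and 7.02 in axons and 10.48, 10.31 and 10.75 in cell bodies, at least 9.78-fold lower (log2 -3.35, SE 0.23, limma adjusted p = 0.00173). Every axonal array of this gene lay below every cell body array, as for 26.9% of all genes. The chaperone count by both scales was 1 with a weight for each compartment and 0 or 1 without a somatodendritic array. No proteasome subunit was called higher under either of these, and Psmb7 was called with the weight but not without any 1 somatodendritic array.

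**Figure D4:**
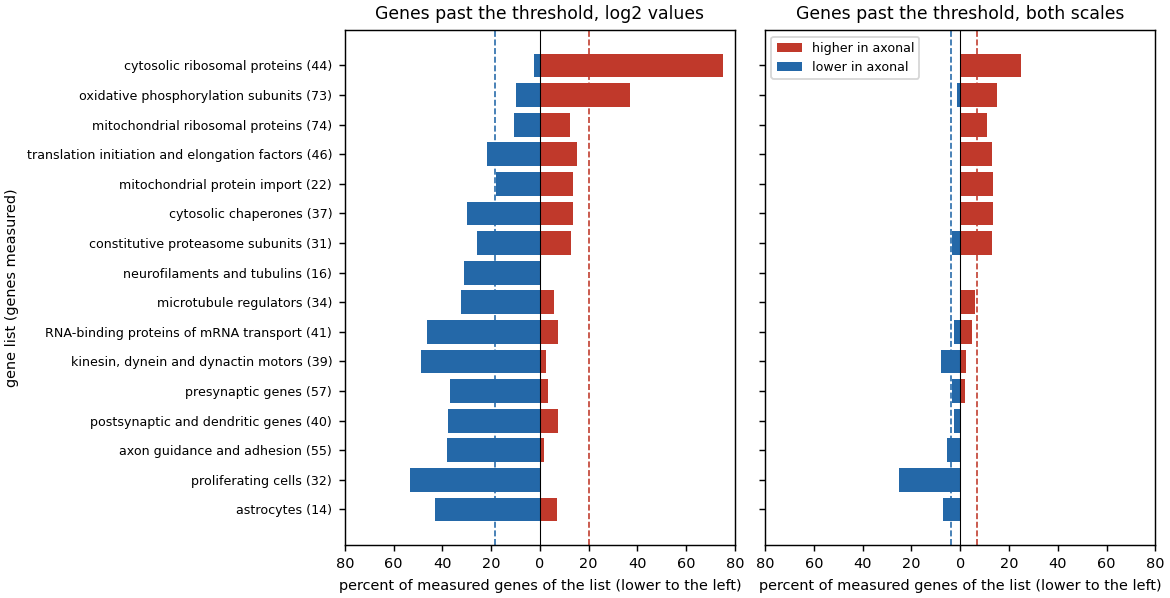
Percent of the measured genes of each list called higher (red, to the right) or lower (blue, to the left) in axons by the log2 values (left panel) and by both scales (right panel), with dashed lines at the percent over all 18191 genes and the number of measured genes in brackets. Ribosomal protein genes reach 75.0% higher by values, and of the lists drawn, markers of proliferating cells stand farthest to the left in both panels.

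Of 48 transcripts known from earlier work on axons, 44 were measured, 43 above background in cell bodies and 36 in axons. By both scales Atp5g1 and Eef2 were higher (4.55%, against 6.91% of all genes) and none was lower. By values 8 were higher and 12 lower with a median of -0.40, and on a common distribution 7 and 1 with a median of 0.14, so the balance turned with the scaling. Actb, beta-actin, a much studied axonal mRNA, was at 13.34, 13.22 and 12.86 in axons and 11.92, 11.67 and 12.44 in cell bodies, 2.19-fold higher by values (limma adjusted p = 0.0224). Its rank difference of 2.5 did not pass (adjusted p = 0.253). Gap43, a growth cone protein, was at 9.42, 9.63 and 10.72 against 8.96, 8.52 and 8.83. Its axonal arrays were all above those of the cell bodies, as for 37.0% of all genes. By limma it passed by rank (adjusted p = 0.0144) but not by value (adjusted p = 0.0511). Cox4i1, Ybx1, Sncg, Tmsb10 and Cycs were higher by 1.29, 1.21, 1.07, 0.81 and 0.79 by values only, Sncg while dim in both compartments. Differences that passed on neither scale were 0.19 for Cfl1, the actin-severing protein cofilin, 0.13 for Hspa8, 0.02 for Tpt1 and -0.37 for Eef1a1. The same held for 0.72 for the import receptor Kpnb1, 0.42 for Fth1, 0.02 for Rhoa, -0.13 for Ranbp1, -0.17 for Calr and Tmsb4x, -0.36 for Stat3, -0.37 for Uchl1, -0.43 for Vim and -0.55 for Pard3. It held as well for -0.59 for Hspa5, -0.61 for Hsp90aa1, -0.82 for Pfn1, -1.06 for Nrn1, -1.14 for Csnk2a1 and -1.48 for Map1b. Creb1, a transcription factor reported in axons, was at -2.69, and Ddit4, Impa1, Bcl2l2 and Lmnb2 at -1.75, -1.15, -1.09 and -1.05, lower by values only. Limk1, Mtor and Prdx2 were lower by values only as well, at -0.75, -0.61 and -0.56, but Limk1 and Mtor differed by 0.21 and 0.26 in the other direction on a common distribution.

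Neurofilament and tubulin transcripts, whose proteins fill the axon, were not among the higher ones. Of 16 neurofilaments and tubulins none was called by both scales, against 6.91% higher and 3.63% lower of all genes. By values 0 were higher and 5 lower (0 and 7 at an unadjusted p under 0.05 by limma). On a common distribution none was called, and the list's median was -0.05. Nefl, the light neurofilament chain, was at 10.93, 12.35 and 11.33 in axons and 12.73, 12.82 and 12.89 in cell bodies, a difference of -1.27 that passed by values only. Nefm and Nefh, the medium and heavy chains, were lower by values only, at -1.32 and -2.03, and Tubb3, the neuronal tubulin, differed by -0.77 (limma adjusted p = 0.0604). Among 34 microtubule regulators, Dpysl5 and Tppp3 were higher by 0.55 and 0.82 by both scales (5.88%, against 6.91% of all genes). By values 2 were higher and 11 lower, and on a common distribution 2 and 3. Stmn2, a tubulin-binding protein of growth cones, was at 9.37, 9.93 and 9.71 in axons and 11.49, 11.53 and 11.65 in cell bodies, 3.69-fold lower by values (adjusted p = 0.00349) but not by rank (adjusted p = 0.0845). Mapt, the axonal protein tau, and Map2, its dendritic relative, differed by -1.22 (adjusted p = 0.0672) and -1.63 (adjusted p = 0.00388), neither of which passed by rank.

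Transcripts for synapses, guidance and transport had more lower than higher genes by values, of which few were called by both scales. Of 57 presynaptic genes 2 were higher and 21 lower by values, 4 and 7 on a common distribution, and 1 (1.75%) and 2 (3.51%) by both scales, against 6.91% and 3.63% of all genes, with 53 above background in cell bodies and 37 in axons. Snap91, a clathrin assembly protein of synaptic vesicles, was at 9.12, 8.95 and 9.07 in axons and 12.26, 12.34 and 12.17 in cell bodies, 9.26-fold lower (log2 -3.21, SE 0.13, limma adjusted p = 0.00112). Both compartments were even for this gene, and both lay above background. Rimbp2, which tethers calcium channels at release sites, was lower (log2 -1.08), and Ppfia3, a liprin scaffold, was 2.83-fold higher. Of 40 postsynaptic and dendritic genes 3 were higher and 15 lower by values, and 1 and 3 on a common distribution. Dlgap1, a scaffold under glutamate receptors, was the only one called by both scales (2.5%, against 3.63% of all genes lower). It was at 6.52, 7.03 and 7.21 in axons and 9.74, 10.07 and 9.85 in cell bodies, at least 6.93-fold lower.

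Of 55 genes of axon guidance and adhesion 1 was higher and 21 lower by values, with a median of -1.18. On a common distribution these were 1 and 6, and by both scales 3 were lower (5.45%, near the 3.63% of all genes). Epha4, an ephrin receptor that steers motor axons in the limb, was at 3.50, 5.75 and 6.74 in axons and 9.65, 9.84 and 9.49 in cell bodies, at least 6.09-fold lower (limma adjusted p = 0.015). Sema5a and Gpc2 were lower with differences of -1.83 and -1.08, and the secreted semaphorins Sema3a and Sema3c, by values only, with -3.87 and -2.97. Only 19 of the 55 were above background in axons, against 46 in cell bodies. Without any 1 somatodendritic array no guidance gene was called by both scales.

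Of 39 motor genes, kinesins, dyneins and dynactin, 1 was higher (2.56%) and 3 lower (7.69%) by both scales, against 6.91% and 3.63% of all genes. By values 1 was higher and 19 lower, but on a common distribution 6 and 3, so the balance turned with the scaling. Dynlrb1, a light chain of dynein, the motor toward the cell body, was 2.26-fold higher. Dynlt1f, another dynein light chain, Kif13a, a kinesin, and Nde1, a dynein regulator, were lower with differences of -1.84, -1.22 and -0.96, although Kif13a differed by 0.23 in the other direction in the mean of its probe sets. Of 41 RNA-binding proteins of mRNA transport 3 were higher and 19 lower by values, and 4 and 5 on a common distribution. By both scales 2 were higher (4.88%) and 1 lower (2.44%), against 6.91% and 3.63% of all genes. Pum2, a repressor of translation in neurites, was at 8.74, 9.12 and 9.48 in axons and 11.53, 11.66 and 11.39 in cell bodies, 5.33-fold lower by both scales (limma adjusted p = 0.00311). Igf2bp1, which binds beta-actin mRNA, was higher by 0.62 but dim in both compartments. Ntrk2, the BDNF receptor TrkB, was at 9.01, 9.55 and 10.83 in axons and 12.32, 12.31 and 12.31 in cell bodies, 5.73-fold lower by values (adjusted p = 0.0147).

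RNAs that stay in the nucleus were present in the axonal samples. Malat1, a long noncoding RNA of nuclear speckles, was at 11.18, 9.26 and 11.26 in axons and 9.34, 9.78 and 10.31 in cell bodies, overlapping and not different by the test (limma adjusted p = 0.319). Meg3, another nuclear RNA, was at 13.47, 12.44 and 13.43 against 12.37, 12.62 and 12.43. Of 15 such RNAs Pvt1 was 2.79-fold higher and Sox2ot lower (log2 -2.54) by both scales, 6.67% each, against 6.91% and 3.63% of all genes. Of 51 splicing factors 4 were higher and 19 lower by values, but 6 and 1 on a common distribution, so the balance turned with the scaling. By both scales 1 was higher and 1 lower, 1.96% each, against 6.91% and 3.63% of all genes. Srsf2 was lower (log2 -2.63) by both scales, although its probe sets specific to the gene gave a difference of 0.08. What the nuclear RNA in the axonal compartment came from was not tested.

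For other lists the shares called by both scales are set against the 6.91% higher and 3.63% lower of all genes. Of 16 glycolytic enzymes Aldoa, an aldolase, was higher by 0.93 (6.25%). Of 43 actin cytoskeleton genes Arpc4, a subunit of the Arp2/3 complex that branches actin, was higher by 1.22 (2.33%). Of 37 voltage-gated ion channels Hcn2 and Kcnh7 were higher (5.41%), by 0.82 and 0.91. Egr3 and Egr4 were higher by 0.86 and 0.69 (8.7%) and Btg2 was lower (log2 -1.21, 4.35%) among 23 immediate early genes. Of 27 Hox genes, which set position along the spinal cord, Hoxc5 was higher by 0.94 and Hoxd3 lower (log2 -1.59), 3.7% each. Of the higher genes just named Aldoa alone was above background on all axonal arrays, and Egr3 differed by -0.14 in the mean of its probe sets. Srp9, part of the signal recognition particle, was lower (log2 -2.28, 2.22%) among 45 genes of endoplasmic reticulum translocation and folding. Of 36 chromatin genes, 19 cholesterol synthesis enzymes and 19 genes of Smn complex and snRNP assembly, 2, 2 and 1 were higher by both scales (5.56%, 10.5% and 5.26%). None was lower.

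The largest lower differences were of genes above background in cell bodies and not above it on all axonal arrays. They are ordered by the log2 difference, which includes levels under background, and not by the bound on the fold. Trhr, the receptor for thyrotropin-releasing hormone, was at 2.90, 3.09 and 2.86 in axons and 9.73, 9.86 and 9.40 in cell bodies, at least 6.11-fold lower (log2 -6.71, SE 0.18, limma adjusted p = 3.69e-04). Trhde, the enzyme that degrades the same hormone, was at 3.76, 6.64 and 3.47 against 9.36, 9.43 and 8.69, at least 4.30-fold lower (adjusted p = 0.0158). It lost its call without axonal replicate 1 or 3 or without any 1 somatodendritic array. Setd5, a chromatin protein, was at 4.08, 4.81 and 4.47 against 10.10, 10.35 and 9.66, at least 7.90-fold lower. C1ql3, a secreted protein that organises synapses, was at 4.77, 4.38 and 4.87 against 9.48, 9.72 and 9.02, at least 5.12-fold lower. Setd5 and C1ql3 had an adjusted p of 0.00112 each, and neither was above background on any axonal array. Ttc30b, part of the transport machinery of cilia, was at 6.79, 5.70 and 3.78 against 10.33, 10.57 and 10.28, at least 10.1-fold lower. It had no call when axonal replicate 2 or any 1 somatodendritic array was left out.

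Ptpre, a receptor tyrosine phosphatase, was at least 5.30-fold lower, and Phf20l1, a reader of histone methylation, at least 7.49-fold. Each had other bright probe sets that did not all pass, at -0.45 for Ptpre and at -0.95 and 0.44 for Phf20l1. Trhr, Setd5, C1ql3, Zfp248, Pdgfra and Gfap also had other probe sets, none of them above background in either compartment. No other bright probe set thus bears on the direction of these genes. Zfp248, a zinc finger protein, was at 4.22, 3.72 and 3.92 in axons against 8.45, 8.80 and 8.35, at least 2.79-fold lower. Cdca5, which holds sister chromatids together, was at 3.58, 3.98 and 3.82 against 8.39, 8.23 and 8.41, at least 2.45-fold lower, and the difference of its other bright probe set was -1.24.

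Genes of dividing cells were often lower in axons, 8 of 32 measured by both scales (25.0% against 3.63% of all genes), and none was higher. By values 17 were lower and none higher (23 and 1 at an unadjusted p under 0.05 by limma), with a median of -1.74. On a common distribution 8 were lower and none higher. Above background were 24 in cell bodies against 6 in axons. Cdca8, a subunit of the chromosomal passenger complex, was at 6.89, 5.66 and 5.25 in axons and 10.33, 10.23 and 10.57 in cell bodies, at least 10.0-fold lower (limma adjusted p = 0.00342). Cdc20, an activator of the anaphase-promoting complex, was at 6.36, 5.36 and 5.92 against 9.78, 9.44 and 10.00, at least 6.43-fold lower. Cenpf, a kinetochore protein, was at 5.95, 5.32 and 5.25 against 9.21, 8.91 and 9.37, at least 4.31-fold lower. None of these 3 was above background on any axonal array. The mitotic checkpoint kinase Bub1, the centromere motor Cenpe, the cyclin Ccna2, the kinase Aurkb and the midzone motor Kif23 were at least 1.80-fold, 1.50-fold, 3.01-fold, 1.25-fold and 1.54-fold lower. The count by both scales was 7 with a weight for each compartment, 1 or 2 without a somatodendritic array and 6 to 14 without an axonal one.

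Promoters of many genes of the late cell cycle hold the cell cycle homology region, whose core is TTTGAA, through which they are repressed in resting cells. Of the called genes that have it near their start 3 are shown, in 30-base windows on GRCm38.p6 from RefSeq, read 5′ to 3′ on the gene's strand, with the core in capitals.
Cdc20, chr4:118437344-118437373, minus strand: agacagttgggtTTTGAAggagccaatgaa
Cenpf, chr1:189688067-189688096, minus strand: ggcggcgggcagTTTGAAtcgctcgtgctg
Kif23, chr9:61946780-61946809, minus strand: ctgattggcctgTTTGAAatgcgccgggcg
TTTGAA on either strand lay between 250 bases before and 50 after the start in 4 of the 6 called genes with a window (66.7%) and in 15 of the 27 list members with one (55.6%). The share was 13.3% over the 14450 tested genes with a window and 18.1% over all 27025. These matches describe the sequence and say nothing of its use in these cells.

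Of the glial lists, 3 of 12 oligodendrocyte lineage markers (25.0%) and 1 of 14 astrocyte markers (7.14%) were lower by both scales, against 3.63% of all genes, and none was higher. Pdgfra, the growth factor receptor of oligodendrocyte precursors and of meningeal fibroblasts, was at 6.46, 7.69 and 5.44 in axons and 11.94, 12.02 and 11.48 in cell bodies, at least 23.4-fold lower (log2 -5.28, SE 0.56, limma adjusted p = 0.00431). Without axonal replicate 1 or any 1 somatodendritic array it was not called. Ugt8a, which makes myelin galactolipid, was at 4.30, 3.89 and 4.50 against 8.12, 8.45 and 7.68, at least 2.04-fold lower. The other called oligodendrocyte marker, Cldn11, was dim in both compartments. Vcan, versican, a matrix proteoglycan made by precursors and astrocytes, was at 6.90, 4.59 and 3.90 against 9.92, 10.08 and 9.63, at least 7.08-fold lower. It had no call when axonal replicate 2 or 3 or any 1 somatodendritic array was left out. None of its other probe sets was above background in either compartment. Gfap, the intermediate filament of astrocytes, was at 4.42, 4.22 and 4.31 against 8.77, 8.79 and 8.80 (log2 -4.47, SE 0.13, adjusted p = 3.69e-04), at least 3.33-fold lower. Its probe set may read other transcripts, and the one specific to the gene differed by 0.63 in the other direction without passing. Gfap was the 1 of 14 astrocyte markers called by both scales. By values 1 was higher and 6 were lower, and on a common distribution 0 and 2. Aldoc, a glycolytic enzyme of astrocytes, was at 9.18, 12.05 and 9.45 in axons and 12.33, 12.19 and 12.20 in cell bodies, with axonal replicate 2 close to the cell bodies. Slc6a5, the glycine transporter of inhibitory neurons, was lower as well, at 7.74, 8.14 and 8.16 against 11.28, 11.34 and 11.01, 9.18-fold by both scales. Of 17 microglial markers none was called by both scales or on a common distribution, with 1 higher and 0 lower by values.

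Other probe sets of the same gene gave a further reading. Of the 399 higher genes 226 had other probe sets, by which 116 were also called the same way and 15 the other way, and of the 490 lower genes 313 had, with 92 the same way and 110 the other way. Many of these probe sets were dim. Among the 399 higher genes, 99 had another probe set above background, of which 73 had the same sign, 45 were called the same way and 10 the other way. Among the 490 lower genes these numbers were 106, 97, 66 and 2. A probe set counted as above background where it was so in either compartment. Those of lower genes could thus enter through brightness in cell bodies, and those of higher genes through brightness in axons. The counts above background, also those given for single genes, are therefore no independent support for a direction. Over all other probe sets, more of the lower genes were called the other way than the same way.

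Cultures with an empty lentiviral vector gave the same comparison on 6 other arrays. Of the 399 genes higher in wild-type axons, 345 (86.5%) had the same sign there, 94 (23.6%) were called by both scales and 0 were called the other way. Over all 10155 genes with a higher sign in wild-type, 89.2% kept it with the empty vector, so the share of the 399 was near that background. Of the 490 lower genes, 480 (98.0%) had the same sign, against 88.1% of all genes with a lower sign, and 107 (21.8%) were called. The median difference of the higher genes was 0.96 in wild-type and 0.73 with the empty vector, and that of the lower genes -2.28 and -1.95. In all, 528 genes (2.9%) were called higher and 616 (3.39%) lower in the empty vector cultures. Of the genes called by both scales in either, 223 were shared among the higher ones, 17.7% of those of wild-type and 42.2% of those of the empty vector, and 147 among the lower ones, 22.2% and 23.9%.

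The ribosomal protein genes had the same sign in both kinds of culture for 44 of 44, against 16145 of 18191 over all genes. Their median was 0.97 in wild-type and 0.76 with the empty vector, against 0.17 over all genes in each. Of the 44, 6 were called in both: Rps15, Rps10, Rps19, Fau, Rpl27a and Rps27. Over all 18191 genes 223 were called higher in both. Dus2 was higher by 5.26 and 6.12, Rps15 by 3.51 and 3.18 and Bola2 by 2.97 and 2.77. The median of the oxidative phosphorylation genes was 0.44 in wild-type and 0.09 with the empty vector, against 0.17 over all genes in each. With the empty vector the list thus did not exceed all genes. No subunit passed the test of the difference between the cultures, and 2 of 73 subunits were called higher in both. Eif4ebp1 and Fyco1, which spread widest in wild-type axons among the 12 largest higher genes, were higher by 1.62 and 0.49 with the empty vector, without a call. Among lower genes Pdgfra was at -5.28 and -5.41, Gfap at -4.47 and -3.91 and Psmb7 at -3.35 and -4.61, each called in both. Cdca5 was at -4.55 in wild-type and 0.58 with the empty vector, and C1ql3 at -4.74 and -1.75. Of the proliferation list Bub1 was called lower in both. The difference between the 2 kinds of culture itself passed for 6 of 18191 genes (0.033%), more positive for 1 (0.0055%) and more negative for 5 (0.0275%), and none of the 24 largest genes was among them.

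**Figure D5:**
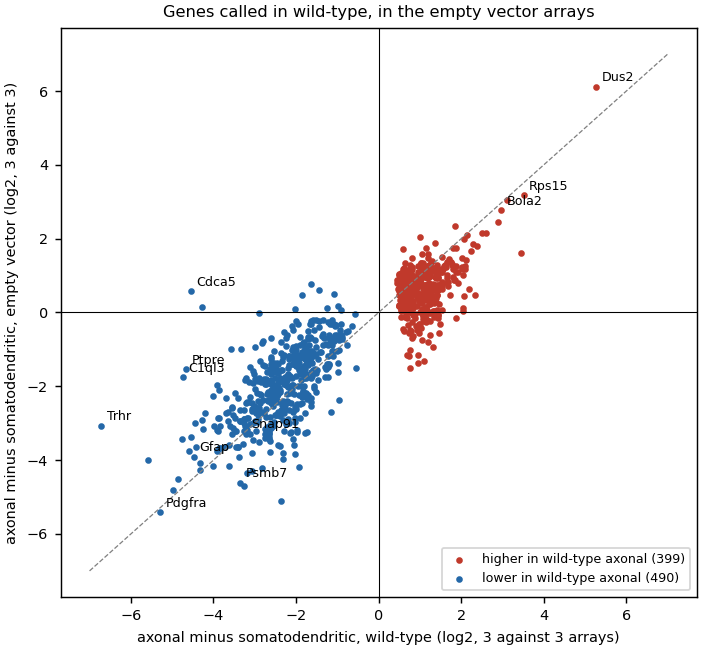
Axonal minus somatodendritic log2 difference in the empty vector cultures (y axis) against the same in wild-type cultures (x axis), for the 399 genes called higher (red) and 490 called lower (blue) in wild-type axons, with the line of equal values dashed. Most blue points (480) stay below 0 with the empty vector, while 345 of the red points stay above 0; Cdca5 lies at 0.58 on the y axis.

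In cultures with the short hairpin RNA against Smn the compartments differed in more genes, 3926 (21.6%) higher and 2105 (11.6%) lower by both scales. The background level of the axonal arrays was 7.85 to 8.44 there, above that of wild-type axons. The compartment difference itself was more positive than in wild-type for 1487 genes (8.17%) and more negative for 734 (4.03%). Among the 24 largest genes it differed for Dus2, Trhr, Pdgfra and Ptpre. Rps15 was higher by 3.69, Rps10 by 3.56, Rps19 by 3.44 and Rplp0 by 2.66 in the knockdown cultures. Of the 11 ribosomal protein genes called in wild-type, Rpl11 and Rps24 were the ones without a call there. Smn1 was below background on all wild-type arrays and averaged 5.32 in axons and 5.06 in cell bodies with the knockdown, so its level cannot check the knockdown label.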

How the data were processed

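The deposited values are log2 expression values, 1 per probe set and array, over 45101 probe sets. Their normalization software was not given in the sources used here. Sorted values nearly coincide among arrays of one compartment and differ between compartments, so the authors normalized the compartments apart. The SD over probe sets was 1.87 on axonal and 2.27 on somatodendritic wild-type arrays. The 64 control probe sets and 11 with missing values were left out. Of the probe sets, 34958 named 1 gene, 932 several and 9211 none in the platform annotation. Each gene was read by its brightest probe set, by the mean of all 18 arrays, which gave 18191 genes, 9008 of them with several probe sets. Symbols of 18029 genes were matched by identifier to RefSeq. 

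The 3 axonal and 3 somatodendritic wild-type arrays were fitted with limma 3.58.1 (lmFit, eBayes) in R 4.3.3, once on the deposited log2 values and once on percentile ranks within each array, with p adjusted by Benjamini and Hochberg's method over 18191 genes and called under 0.05. The same fits were run on the empty vector and the knockdown arrays, and the difference between kinds of culture was tested as an interaction on 12 arrays. The standard error (SE) is that of limma. The number of arrays, 3 per group, limits the precision. The background level was the 95th percentile of 283 probe sets of 222 genes, olfactory receptors and others, that belong to tissues outside the spinal cord. Folds are 2 to the power of the log2 difference, and a bound is taken against the background level. Scripts were tested on simulated data. Tables and figures were made with Python 3.11.15, pandas 2.3.3, numpy 2.4.6 and matplotlib 3.10.9.

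The text names the 12 largest genes in each direction that were called by both scales, did not overlap between the compartments and lay above background in the brighter group, clone-like names skipped, and the measured transcripts known in axons. Of each other list it names members from among the 4 with the lowest p, not all of them. Further called members of a list, and the markers by which single arrays differed, were named after their values were seen. Counts on a common distribution come from both compartments quantile normalized together. A receptor list and 1 start sequence are not reported here. The arrays compared, the gene lists and the rules were chosen with earlier results of these data known. The titles number the wild-type arrays of both compartments alike, and whether these numbers pair the arrays is not known. Axonal and somatodendritic arrays with the same number had deviations from their group means that correlated at 0.011, 0.0098 and -0.0021. Arrays with unlike numbers correlated at -0.048 to 0.043. With 3 arrays per group and far noisier axonal arrays, these values cannot exclude a pairing. Alternatives were a fit to all 18 arrays, both compartments quantile normalized together, each array minus its median, a filter on dim genes, probe sets open to cross-hybridisation (suffix _s_at or _x_at) removed, the mean over the probe sets of a gene, array weights per compartment, an intensity trend, the replicate number as a block, and each array left out in turn.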

Additional observations from a re-analysis of the deposited data

Results flagged for a closer look

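The difference between axonal and somatodendritic RNA was itself unlike that of wild-type in 6 genes of the empty vector cultures, by limma's interaction over 6 wild-type and 6 empty vector arrays. These genes were named after their values were seen. Vps13a, a lipid transfer protein, was lower in axons by 4.27 in wild-type and at 0.15 with the empty vector, a difference of 4.42 (SE 0.54, adjusted p = 0.0223), and its axonal mean was 4.27 in wild-type and 8.29 with the vector. Lyz1, lysozyme, was at 0.32 in wild-type and -5.16 with the vector, a difference of -5.49 (adjusted p = 0.0215). Pcmtd2 was at -0.94 and -4.61 (difference -3.67, adjusted p = 0.0106), Ttc30a1 at -2.35 and -5.11 (difference -2.76, adjusted p = 0.00206), Slc15a4, a lysosomal peptide transporter, at 0.43 and -2.23 (difference -2.66, adjusted p = 0.0215), and Acadm, the medium-chain acyl-CoA dehydrogenase, at -1.66 and -3.81 (difference -2.15, adjusted p = 0.0103).

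In the knockdown cultures the compartment difference of 4 of the 24 largest genes was unlike that of wild-type. That of Dus2 was larger by 1.25 (SE 0.32, limma adjusted p = 0.0318), at 6.52 against 5.26. Trhr was at -4.77 against -6.71, a difference of 1.95 (SE 0.31, adjusted p = 0.00426). Pdgfra was at -2.11 against -5.28, a difference of 3.17 (SE 0.85, adjusted p = 0.0371), and its somatodendritic mean was 8.56 with the knockdown and 11.81 in wild-type. Ptpre was at -1.97 against -4.66, a difference of 2.70 (SE 0.74, adjusted p = 0.0409). The axonal background level was 7.85 to 8.44 with the knockdown and 7.03 to 7.08 in wild-type, and its part in these differences was not tested.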

How the results depend on the processing

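Counts are given as higher and lower in axons, with the causes of the changes not tested. In wild-type by values (3651 and 3358) they were 1478 and 926 with both compartments on one distribution, 206 and 1473 with the replicate block, and, higher only, 5726 after subtracting each array's median, 311 with the filter on dim genes and 2085 with array weights. By ranks (2003 and 722) they were 1007 and 477 with that filter, 627 and 468 with weights, 0 and 0 with the replicate block (3455 and 1447 at an unadjusted p under 0.05 by limma), and, higher only, 1288 with all 18 arrays and 1192 with a trend. By both scales (1257 and 661) the block gave 0 and 0 (2064 and 1312 unadjusted), and the higher count was 691 with all 18 arrays, 267 with the filter and 406 with weights. Whether the numbers pair the arrays is not known, and the block fits further terms to only 3 arrays per group. The part of either in the lower counts was not tested. For the knockdown comparison no paired analysis was possible because its titles carry another numbering. With the empty vector (528 and 616) the counts were 1991 and 938 with all 18 arrays, 77 and 335 with weights, 0 and 0 with the block (1808 and 1380 unadjusted), and, higher only, 140 with the filter, 928 with the mean of probe sets and 269 with a trend. The interaction with the empty vector (1 and 5, or 412 and 502 at an unadjusted p under 0.05) gave 2 and 3 with all 18 arrays, 0 and 2 with the mean of probe sets (420 and 502 unadjusted), 0 and 1 with weights (307 and 561) and with the block (371 and 481), and 3 lower without probe sets that may read several genes. That with the knockdown gave 525 higher with the filter and 771 with weights. Leaving out 1 array in turn gave 67 to 4389 and 593 to 4201 by values, 20 to 3187 and 82 to 1455 by ranks, 17 to 2020 and 81 to 1364 by both, 1 to 2389 and 99 to 1535 with the empty vector, 0 to 17 and 1 to 80 for its interaction, and 780 to 2269 and 336 to 1468 for that of the knockdown. Single genes turned their sign without probe sets that may read several genes (Gfap 0.63, Cox7c 0.10, Snrpg 0.43, Srsf2 0.082, Sf3b4 0.022), in the mean of probe sets (Kif13a 0.23, Baz2b 0.23, Egr3 -0.14, Mtor 0.26, Msi1 0.062) and on one distribution (Lss 0.27, Sort1 0.12, Limk1 0.21, Mtor 0.26). Of the 24 largest genes 5 kept their call under every alternative except the block, and 24 under both other scalings. Signal over background limits the axonal side: 9152 of 18191 genes were above background in neither compartment, and a gene below it in axons has only a bound.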
